A study of Mus musculus with 12 samples.

Results

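Inhibitory receptors and their partners were described in cDC1, the type 1 conventional subset of dendritic cells, which captures antigen and presents it to CD8 T cells. The set held 9 genes of 19938 tested, taken by name: Havcr2 (TIM-3), Lag3 (LAG-3), Btla (BTLA), Cd200, Cd200r1, Lgals9 (galectin-9), Cd226 (DNAM-1), Pvr (CD155) and Sirpa. All 9 had a single probe set that carried 1 gene symbol. Not all are inhibitory receptors: Cd200, Lgals9 and Pvr encode ligands, and CD226 is an activating receptor. The cells came from unimmunised C57BL/6 mice in which both Cd40 alleles were flanked by loxP sites. Mice labelled Xcr1++, called control here, carried no Cre, and mice labelled Xcr1Cre+, called Cre here, had Cre on 1 Xcr1 allele, a driver aimed at Cd40 deletion in cDC1. RNA was measured in 4 groups of 3 arrays: control and Cre cells of the spleen (SPL), and control and Cre cells of the skin-draining lymph nodes (SDLN). The spleen cells were sorted as CD11c high and the lymph node cells as CD11c intermediate, migratory cDC1. Cells from both tissues were sorted as B220-, MHC class II high, XCR1+ and Sirpa-, per the labels' protocols. The labels give no age, and do not say that each replicate is another mouse, so the tests measure scatter between arrays that may be technical.

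These molecules set how strongly a dendritic cell and the lymphocytes it meets restrain each other. TIM-3 on cDC1 binds galectin-9 and the DNA-binding protein HMGB1 and dampens responses to nucleic acids, BTLA binds the TNF receptor HVEM, and LAG-3 binds MHC class II. CD200 engages the myeloid inhibitory receptor CD200R1, PVR is shared by activating CD226 and inhibitory TIGIT, and SIRPa reads the "do not eat me" signal CD47.

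RefSeq promoter windows (build GRCm38.p6) were searched for 4 of the 9 genes, and Cd226 was left out of the search by choice. No window was available for Lag3, Cd200r1, Pvr and Sirpa. The 4 genes were thus not picked by their tissue differences, and all 4 windows are shown as the 250 bases before the start. Havcr2, Btla and Lgals9 were lower in lymph node, and Cd200 higher, on every array. Capitals mark matches on either strand to GAGGAA (a core bound by PU.1 and other ETS factors), TGANTCA (AP-1 type) or GAAA, any 2 bases, GAAA (interferon response type), each window reading 5′ to 3′ along the gene.
Havcr2, chr11:46454681-46454930, plus strand: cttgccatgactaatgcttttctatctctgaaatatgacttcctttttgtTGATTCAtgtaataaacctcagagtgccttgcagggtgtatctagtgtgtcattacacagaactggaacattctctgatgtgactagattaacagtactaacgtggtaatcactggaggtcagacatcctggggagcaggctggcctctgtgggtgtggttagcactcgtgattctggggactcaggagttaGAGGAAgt
Btla, chr16:45224087-45224336, plus strand: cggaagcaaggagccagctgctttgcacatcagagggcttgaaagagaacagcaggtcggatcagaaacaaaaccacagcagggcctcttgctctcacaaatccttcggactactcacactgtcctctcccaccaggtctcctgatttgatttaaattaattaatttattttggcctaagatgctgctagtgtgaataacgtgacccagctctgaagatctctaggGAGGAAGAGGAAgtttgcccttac
Lgals9, chr11:78984925-78985174, minus strand: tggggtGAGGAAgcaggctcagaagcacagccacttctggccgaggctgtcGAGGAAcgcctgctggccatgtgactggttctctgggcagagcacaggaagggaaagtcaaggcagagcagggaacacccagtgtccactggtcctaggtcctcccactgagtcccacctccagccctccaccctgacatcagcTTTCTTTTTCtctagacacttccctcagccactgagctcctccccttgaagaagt
Cd200, chr16:45409054-45409303, minus strand: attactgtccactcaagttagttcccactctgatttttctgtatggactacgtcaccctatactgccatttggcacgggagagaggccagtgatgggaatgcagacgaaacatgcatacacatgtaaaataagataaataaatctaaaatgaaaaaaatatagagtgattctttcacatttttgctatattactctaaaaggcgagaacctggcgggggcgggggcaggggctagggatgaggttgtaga
GAGGAA was found in 3 of the 4 windows, those of the genes lower in lymph node, and in 23.3% of 32851 mouse windows of the same length. It lay 8 to 3 bases before the start in Havcr2, and Btla held 2 adjoining copies 24 to 13 bases before the start that the promoter table gives. That start lies inside the RefSeq bounds of Btla, as that of Cd200 does by a few bases, so the Btla window is internal to the gene. In Lgals9 it lay farther out, with copies at 244 to 239 and at 199 to 194 bases. Among these 4 windows, TGANTCA was found in that of Havcr2 alone (6.75% of all windows) and the interferon type in that of Lgals9 alone (2.98%). The NF-kB consensus was in 0 of the 4 (3.90% of all windows). No motif overlapped another. These matches describe letters and show no binding.

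Values are microarray intensities that the authors processed with RMA, and no probe's level is set against another's. The highest of 3 Y-linked genes gave a background level of 22.2, and array medians ran from 66.1 to 74.4. Between 85.8% and 90.3% of all genes were above this level on each array, so passing it is a weak sign of expression. All 10 cDC1 markers were above background on all arrays, and 8 of them were lower in lymph node in both labels (limma adjusted p under 0.05). Of 6 migratory markers, 5 were higher there in both labels. Summed markers of other cells also differed between tissues. The T cell list (6 measured) summed to 477 to 651 in spleen and 760 to 1552 in lymph node. The macrophage and monocyte list (9 measured) summed to 2401 to 4172 in spleen and 990 to 1220 in lymph node, mostly through Cd14 and Lyz2. Limma called 2 of its genes lower on control and 3 on Cre arrays. In both labels 1 gene, Vcam1, was called higher in lymph node, at log2 differences of 1.04 and 1.29. The B cell list (6 measured) summed to 486 to 648 and 281 to 366. No gene of these lists was at background on all arrays. Their part in the differences below was not tested. Arrays with the same replicate number deviated together across groups. Calls of the 9 genes and of the named partners that change with the replicate number as a block are given both ways. Marker genes are given as fitted without the block unless stated. Cd40 did not follow the genotype labels: its ratio of Cre to control was 0.638, 0.407 and 1.84 in the spleen pairs numbered 1, 2 and 3 and 0.668, 0.500 and 2.18 in the lymph node pairs, so every genotype direction rests on the labels alone. Whether the labels of the pairs numbered 3 are exchanged was not tested.

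Tissue differences were wide in these 9 genes, which were chosen with earlier results of these data known. The shares of all genes given beside them are therefore a description and not a test of the group. Havcr2, Btla and Lgals9 were lower in migratory lymph node cDC1, and Cd200 and Pvr higher. On control arrays limma called 5 of 9 genes lower and 2 higher, where 13.2% of all genes were lower and 12.9% higher. On Cre arrays, which share no array with the control comparison, it called 5 lower (15.2% of all genes) and 2 higher (13.1%). Called alike in both were 6 genes, Havcr2, Btla, Lgals9, Cd200r1, Cd200 and Pvr, while Lag3 was called on control and Cd226 on Cre arrays alone. The median absolute log2 difference over the 9 genes was 1.11 on control and 1.39 on Cre arrays, against 0.16 and 0.21 over all genes. For 6 of the 9 genes, the 6 spleen arrays and the 6 lymph node arrays did not overlap, as held for 25.8% of all genes. In bulk RNA, fewer cells expressing a gene and less RNA per cell cannot be told apart.

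**Figure D1:**
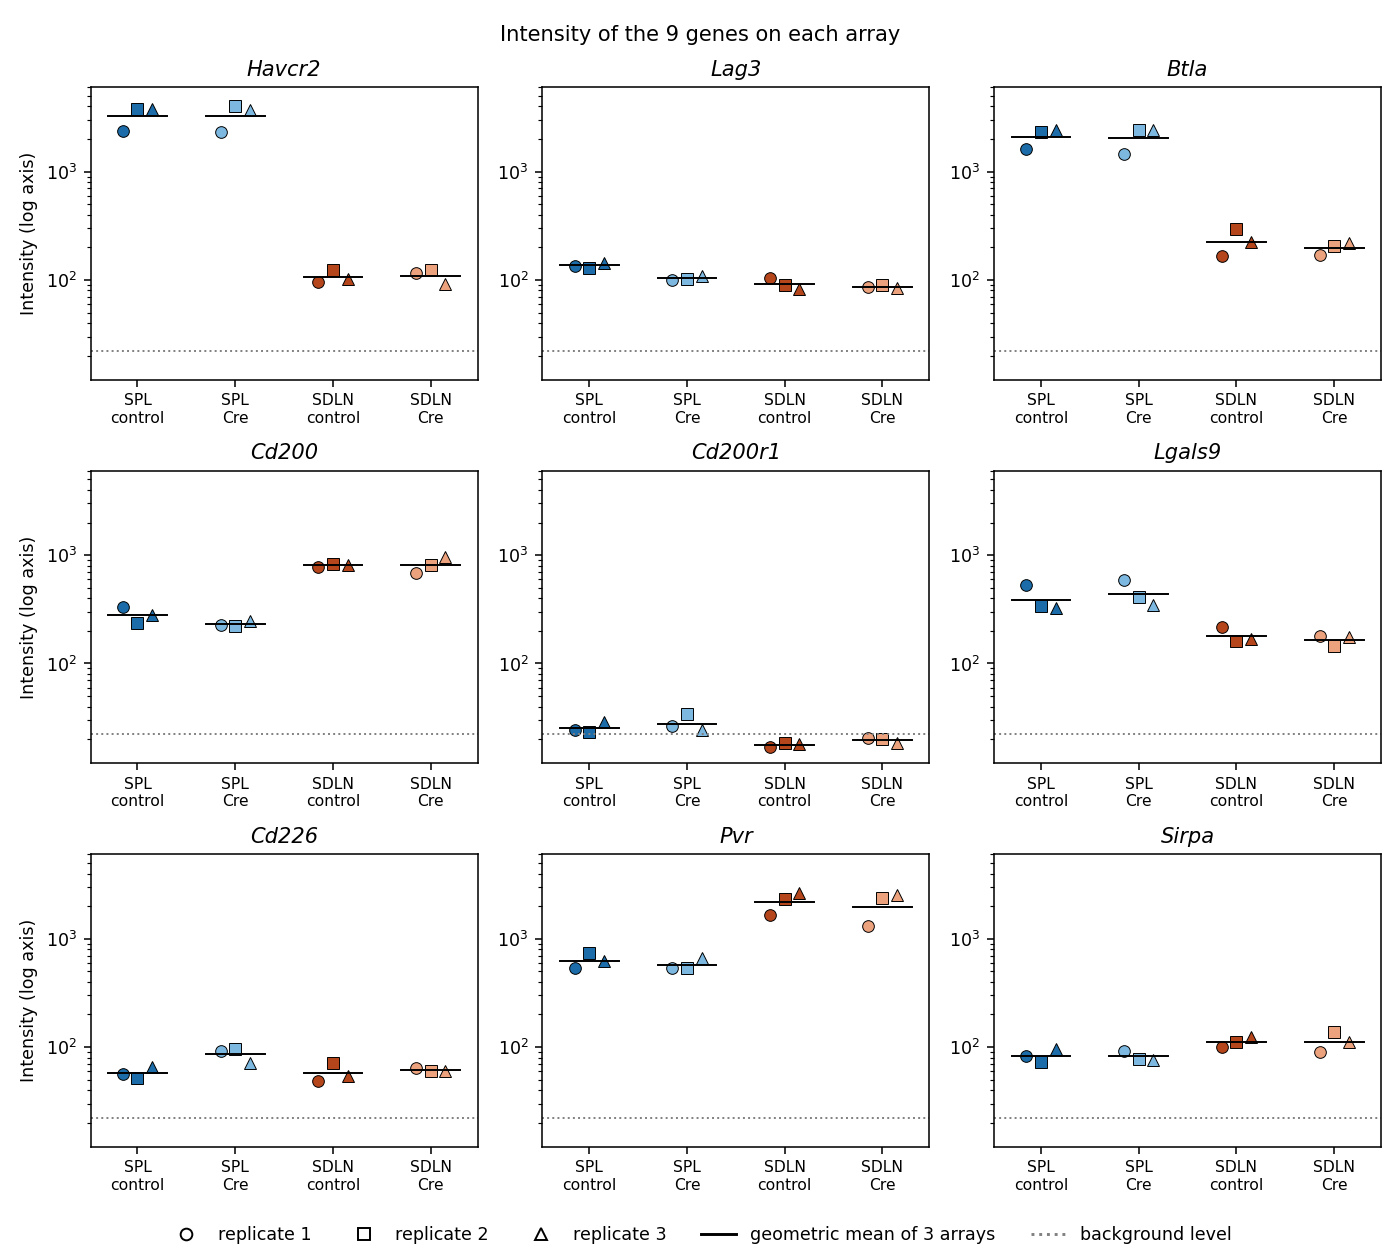
Intensity (log axis) of each of the 9 genes on the 12 arrays, by group; symbols mark replicates, lines the geometric mean of 3 arrays and the dotted line the background of 22.2. Havcr2 and Btla are high on all 6 spleen arrays, Cd200 and Pvr on all 6 lymph node arrays, and Cd200r1 lies at the background line.

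Havcr2 encodes TIM-3, a receptor of cDC1 and of exhausted T cells. Its intensity was 2390, 3793 and 3804 on spleen control arrays and 2299, 4062 and 3723 on spleen Cre arrays, for replicates 1 to 3. In lymph node it was 96.4, 123 and 103 on control and 115, 124 and 90.7 on Cre arrays. The tissues lay far apart on every array, and replicate 1 was the lowest of its group in 3 of 4 groups. The group means were 3329 ± 813 (control) and 3361 ± 936 (Cre) in spleen, against 107 ± 13.6 and 110 ± 17.1 in lymph node (SD, n = 3 each). Havcr2 was thus 30.4-fold lower in lymph node on control arrays (log2 -4.93, SE 0.24, limma adjusted p = 5.94e-09). On Cre arrays it was 30.0-fold lower (log2 -4.91, SE 0.24, limma adjusted p = 5.57e-09). Ranked by log2 difference it was the number 3 most lowered gene of 19938 on control arrays and number 4 on Cre arrays. Its lymph node level stayed above background on 6 of 6 arrays. Since 85.8% to 90.3% of all genes passed that level on an array, this does not show that Havcr2 was detected there.

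The genes with the most similar pattern, by the root mean square difference of centred log2 levels over the 12 arrays, were Treml4 (0.24) and Tlr3 (0.25), against a spread of 2.47 for Havcr2 itself. Treml4 is a receptor that binds dying cells, and Tlr3, one of the cDC1 markers, a sensor of double-stranded RNA. Treml4 was at log2 differences of -4.67 and -4.77, and Tlr3 at -4.57 and -4.69 (control and Cre arrays).

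Lgals9 encodes galectin-9, a secreted lectin that binds TIM-3. Its intensity was 529, 337 and 328 on spleen control and 584, 407 and 344 on spleen Cre arrays. Lymph node arrays gave 215, 162 and 168 on control and 179, 144 and 176 on Cre arrays. Every lymph node array lay below every spleen array, and replicate 1 was the highest array of all 4 groups, opposite to Havcr2. The fall was 2.15-fold on control arrays (log2 -1.11, SE 0.23, limma adjusted p = 0.00184) and 2.63-fold on Cre arrays (log2 -1.39, SE 0.23, limma adjusted p = 0.000287). Receptor and ligand were therefore both lower in migratory cells, by different amounts. The nearest patterns were Morrbid, a long non-coding RNA that regulates Bcl2l11 (0.12), and Dtymk, thymidylate kinase (0.14).

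Among other TIM-3 partners (6 measured), 1 was higher and 2 lower in both labels. Ceacam1, an adhesion receptor that binds TIM-3, was 52.6 to 88.6 in spleen and 143 to 350 in lymph node, at a log2 difference of 1.78 on control and 1.82 on Cre arrays (SE 0.25, limma adjusted p = 7.75e-05 and 6.20e-05). Timd4, the phosphatidylserine receptor TIM-4, was at -2.23 and -1.87 (SE 0.42, limma adjusted p = 0.000969 and 0.00349). It was 889 and 673 on the replicate 1 spleen arrays but 245 to 318 on the other spleen arrays, so both replicate 1 arrays stood above the rest of their group. Fyn, a Src-family kinase, was lower too, at log2 differences of -0.67 and -0.65. Hmgb1 was at -0.30 and -0.49 and was not called in either label (limma adjusted p = 0.524 and 0.197; with the replicate block, Cre arrays, limma adjusted p = 0.00533).

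Btla encodes an inhibitory receptor of B, T and dendritic cells. Its intensity was 1621, 2318 and 2427 on spleen control and 1450, 2421 and 2427 on spleen Cre arrays. In lymph node it was 166, 296 and 224 on control and 169, 207 and 219 on Cre arrays. The tissues did not overlap, and replicate 1 was the lowest array in all 4 groups. The means were 2122 ± 437 (control) and 2099 ± 562 (Cre) in spleen, against 229 ± 64.9 and 198 ± 26.4 in lymph node (SD, n = 3 each). Btla was 9.39-fold lower in lymph node on control arrays (log2 -3.23, SE 0.25, limma adjusted p = 3.57e-07) and 10.4-fold lower on Cre arrays (log2 -3.37, SE 0.25, limma adjusted p = 2.30e-07). The B cell markers Cd79a and Pax5 were 21.9 to 32.5 and 50.6 to 71.6 over all arrays, while Ms4a1 (CD20) averaged 165 (control) and 209 (Cre) over spleen arrays, against 35.3 and 36.0 over lymph node arrays. Ms4a1 and Cd22 were the 2 of 6 measured B cell markers called lower, in both labels. Cd22 was at log2 differences of -0.99 and -1.34. Cd79b was at -0.39 and -0.12, and passed with the replicate block alone, on control arrays (limma adjusted p = 0.0144).

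Of 5 measured BTLA partners, Lta was called in both labels, higher by 0.60 and 0.64 on the log2 scale. Ltbr, the lymphotoxin beta receptor, was at -0.41 on control arrays (limma adjusted p = 0.0786; 0.00709 with the replicate block) and was called lower on Cre arrays, at -0.70 (limma adjusted p = 0.00398). Cd160, another HVEM ligand, was at 0.27 on Cre arrays (limma adjusted p = 0.101; 0.0108 with the replicate block). Tnfrsf14, the BTLA ligand HVEM, ran from 404 to 516 in spleen and from 420 to 577 in lymph node, and these ranges overlapped. Its log2 difference was 0.08 on control and 0.01 on Cre arrays (SE 0.16, limma adjusted p = 0.811 and 0.959). The receptor thus fell where its ligand showed no called change. Nearest to Btla in pattern were Itgal, the LFA-1 integrin chain (0.15), itself on the partner list of CD226, and the pseudogene Nlrp1c-ps (0.18), against a spread of 1.68 for Btla.

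Lag3 encodes a receptor for MHC class II found on T, NK and plasmacytoid dendritic cells. Its intensity was 135, 129 and 144 on spleen control and 100, 102 and 109 on spleen Cre arrays, without overlap, as for 7.64% of all genes. Lymph node values were 104, 89.0 and 82.2 on control and 85.1, 89.2 and 84.0 on Cre arrays, which overlapped. The order of means was control then Cre in spleen, followed by control then Cre in lymph node, and spleen Cre overlapped lymph node control. On control arrays Lag3 was 1.49-fold lower in lymph node (log2 -0.57, SE 0.11, limma adjusted p = 0.00133). On Cre arrays the log2 difference was -0.27 (SE 0.11, limma adjusted p = 0.0942), which was not called. The difference between these tissue effects was 0.31 (SE 0.16, unadjusted p = 0.0756, limma adjusted p = 1), so the labels were not shown to differ. The control call was lost without all arrays numbered 2 (limma adjusted p = 0.0547) or 3 (0.0865).

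Of 7 LAG-3 partners, 0 were higher in either label, 3 were lower on control and 5 on Cre arrays (42.9% and 71.4%, against 26.1% and 28.3% of all genes called in either direction). H2-Ab1, an MHC class II beta chain, was 13238 to 14264 in spleen and 5347 to 7399 in lymph node, at -1.07 and -1.10 (SE 0.12, limma adjusted p = 1.19e-05 and 8.26e-06). Lgals3, galectin-3, was at -2.33 and -1.95 (SE 0.17, limma adjusted p = 2.13e-07 and 1.08e-06). H2-Eb1, another class II beta chain, was called lower at -0.60 and -0.70. H2-Aa, a class II alpha chain, was at -0.25 on control arrays (limma adjusted p = 0.0681; 0.00185 with the replicate block) and was called lower on Cre arrays, at -0.30. Cd4, on the same list, was at -0.35 on control arrays (limma adjusted p = 0.084) and was called lower on Cre arrays, at -0.44 (limma adjusted p = 0.0277). Fgl1, a soluble ligand of LAG-3, was at -0.09 and -0.04 and was not called.

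Cd200 encodes a ligand that restrains myeloid cells through CD200R1. Its intensity was 330, 237 and 278 on spleen control and 227, 223 and 247 on spleen Cre arrays. In lymph node it was 780, 824 and 818 on control and 680, 804 and 972 on Cre arrays. All lymph node arrays lay above all spleen arrays. Cd200 was 2.89-fold higher in lymph node on control arrays (log2 1.53, SE 0.17, limma adjusted p = 7.72e-06) and 3.49-fold higher on Cre arrays (log2 1.80, SE 0.17, limma adjusted p = 1.60e-06). T cells also make Cd200, and the 6 measured T cell genes were higher in lymph node, at a median log2 difference of 0.93 on control and 0.88 on Cre arrays. Cd3g was higher by 1.77 and 1.55, Cd3d by 1.28 and 1.18 and Lat by 1.25 and 0.97. The others rose less: Cd3e by 0.61 and 0.77, Cd28 by 0.57 and 0.78 and Cd247 by 0.29 and 0.41. On control arrays Cd28 and Cd247 were not called (limma adjusted p = 0.0783 and 0.0682), but passed with the replicate block (0.0257 and 0.0301). Cd3d and Cd3g overlapped between tissues on Cre arrays. Any part of T cells in the Cd200 value was not tested. Cd3e averaged 123 (control) and 106 (Cre) over spleen arrays, against 189 and 182 over lymph node arrays. The nearest patterns were Cyria, an actin regulator (0.12), and Serpinb6b, a protease inhibitor (0.12), against a spread of 0.85.

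Cd200r1, the receptor, was near background. It was 24.5, 23.5 and 29.1 on spleen control arrays and 26.3, 33.9 and 24.2 on spleen Cre arrays. Levels in lymph node were 17.0, 18.6 and 17.9 on control and 20.4, 20 and 18.6 on Cre arrays, all below 22.2. The fit gave log2 differences of -0.52 and -0.50 (SE 0.12, limma adjusted p = 0.00386 and 0.00484). Because lymph node arrays gave no level above background, spleen was at least 1.15-fold higher on control and 1.25-fold higher on Cre arrays. The control call was lost without all arrays numbered 3 (limma adjusted p = 0.0627), and the Cre call without those numbered 2 (0.0865). Patterns nearest to it were Bco2 (0.07) and Tecpr2 (0.09), against a spread of 0.29.

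Of 6 further genes of the CD200 receptor family and its signalling, only Dok1 was called in either label. Dok1, an adaptor linked to CD200R signalling, was 271 to 336 in spleen and 1062 to 1675 in lymph node. It was higher by 2.29 on control and 2.15 on Cre arrays on the log2 scale (SE 0.17, limma adjusted p = 2.05e-07 and 3.45e-07). Dok2, the related adaptor of the same pathway, was at 0.19 and 0.28 and was not called.

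**Figure D2:**
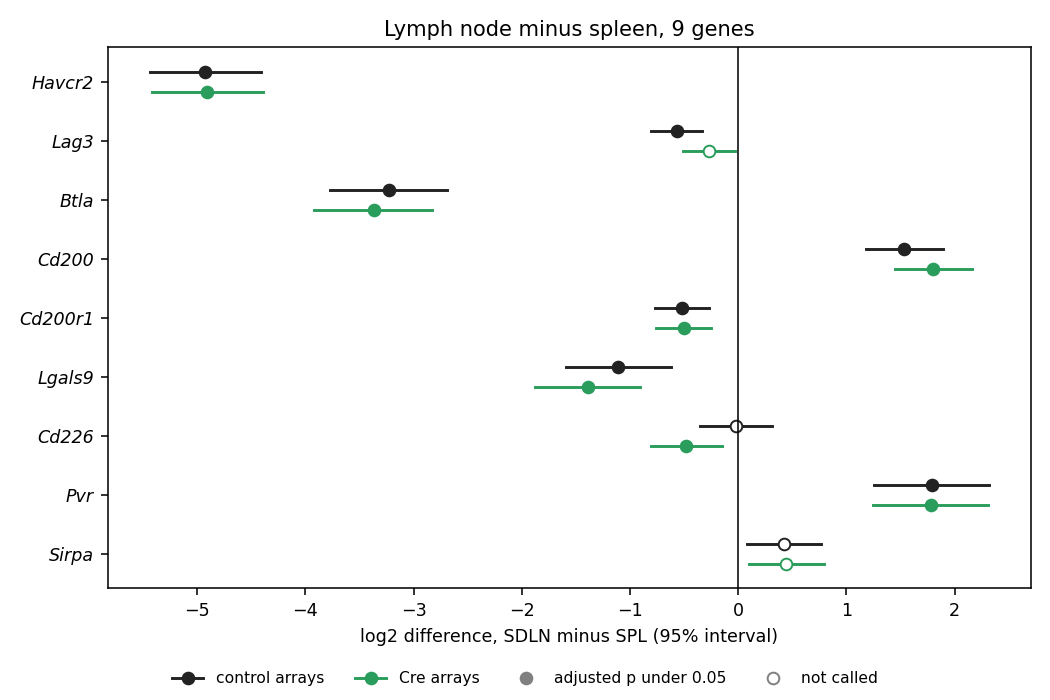
Log2 difference of lymph node minus spleen for the 9 genes on control (black) and Cre (green) arrays, with 95% intervals; filled points were called at an adjusted p under 0.05. Havcr2 lies near -4.93, Btla near -3.23, and Cd200 and Pvr between 1.53 and 1.80.

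Pvr encodes CD155, the ligand shared by CD226, TIGIT and CD96. Its intensity was 534, 735 and 625 on spleen control and 537, 542 and 661 on spleen Cre arrays. Lymph node arrays read 1646, 2331 and 2637 on control and 1305, 2361 and 2523 on Cre arrays. The tissues did not overlap, and replicate 1 was the lowest array of each group. Pvr was 3.46-fold higher in lymph node on control arrays (log2 1.79, SE 0.25, limma adjusted p = 7.57e-05) and 3.43-fold higher on Cre arrays (log2 1.78, SE 0.25, limma adjusted p = 7.76e-05). The nearest patterns were Tnfrsf1b, the TNF receptor TNFR2 (0.11), and Josd1, a deubiquitinase (0.13), against a spread of 0.94. Within the 9 genes, Pvr and Cd200 were nearest to each other among those with large differences, at 0.28.

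Cd226 encodes the activating receptor DNAM-1 of T and NK cells. Its intensity was 56.5, 52.3 and 66.0 on spleen control and 92.2, 96.8 and 71.9 on spleen Cre arrays. In lymph node it was 48.5, 71.9 and 53.9 on control and 64.6, 60.2 and 60.5 on Cre arrays. The spleen Cre arrays were above all other arrays, except that replicate 3 equalled lymph node control replicate 2 at 71.9. On control arrays Cd226 did not pass between tissues, at a log2 difference of -0.02 (SE 0.15, limma adjusted p = 0.963), and with array weights it was called higher in lymph node, at 0.32 (limma adjusted p = 0.0356). On Cre arrays it was 1.40-fold lower in lymph node (log2 -0.48, SE 0.15, limma adjusted p = 0.0288). That call was lost without spleen Cre replicates 1 or 2 (limma adjusted p = 0.082 and 0.123) or lymph node Cre replicates 2 or 3 (0.0765 and 0.076), and without all arrays numbered 2 (0.201) or 3 (0.0567). The difference between both tissue effects was -0.47 (SE 0.22, unadjusted p = 0.0498, limma adjusted p = 1).

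Of 9 measured partners in the CD226 and PVR group, 4 were higher and 2 lower in both labels. Cd96, an inhibitory receptor for PVR, was 36.5 to 48.6 in spleen and 81.6 to 127 in lymph node, at 1.36 and 1.15 (SE 0.17, limma adjusted p = 3.95e-05 and 0.000173). It is a T and NK cell gene. The T cell list was higher in lymph node, while the NK list summed to 682 to 942 in spleen and 337 to 493 in lymph node. That sum followed Klrk1, at -1.66 and -2.04, the only 1 of 6 measured NK genes called in either label. The NK list's median log2 difference was -0.23 and -0.04. Any part of T or NK cells in the Cd96 value was not tested. Nectin2, another CD226 ligand, rose by 0.33 and 0.47 (SE 0.11, limma adjusted p = 0.0378 and 0.00469), and Nectin3 and Nectin4 were called higher too. Tigit ran from 105 to 132 over all arrays and was at -0.09 and 0.04, not called. Itgal, which pairs with CD226 on lymphocytes, was at -3.26 and -3.62 (SE 0.24, limma adjusted p = 2.06e-07 and 7.92e-08). Cadm1, the ligand of CRTAM and a cDC1 marker, was at -2.53 and -2.25 (SE 0.19, limma adjusted p = 2.98e-07 and 8.61e-07).

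Sirpa encodes the inhibitory receptor for CD47 and marks the other conventional subset, cDC2. The sort excluded cells bearing Sirpa protein in both tissues, and any part of that gate in the RNA level was not tested. It was 83.4, 72.8 and 95.1 on spleen control and 92.0, 78.2 and 76.8 on spleen Cre arrays. Lymph node cells gave 101, 111 and 124 on control and 90.2, 139 and 111 on Cre arrays. Control arrays did not overlap between tissues, while Cre arrays did, through lymph node replicate 1. The log2 difference was 0.42 on control (SE 0.16, limma adjusted p = 0.0707) and 0.44 on Cre arrays (SE 0.16, limma adjusted p = 0.0528), so neither was called. With the replicate number as a block both were (limma adjusted p = 0.0455 and 0.0326). Single arrays also moved these calls: without lymph node Cre replicate 1 or 2 the control difference passed (0.0379 and 0.0422). The Cre difference passed when replicate 1 was left out of spleen Cre (0.0417), of lymph node control (0.0492) or of lymph node Cre (0.0113). Both passed when replicate 1 was left out of all 4 groups (0.0209 and 0.00282). The summed cDC2 list, which includes Sirpa, was 432 to 518 in spleen and 631 to 1195 in lymph node, mostly through Irf4 (1.21 and 1.55) and Esam (1.87 and 1.63). Itgam was at -0.45 and -0.24, Cd209a at -0.53 and -0.98 and Mgl2 at 0.00 and 0.08, and the list's median was 0.00 and 0.08. Clec4a4, also on the list, was at background on all arrays, and any part of cDC2 in these values was not tested.

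Of 5 measured SIRPa partners, 1 was lower on control arrays, and 1 was higher and 1 lower on Cre arrays. Cd47, the ligand, was 2296 to 3432 in spleen and 3387 to 5074 in lymph node. Its log2 difference was 0.54 on control arrays (SE 0.19, limma adjusted p = 0.0558; 8.74e-05 with the replicate block) and 0.60 on Cre arrays (SE 0.19, limma adjusted p = 0.0318). Ptpn11, the phosphatase SHP-2 recruited by SIRPa and BTLA, was lower, at -1.18 and -1.29 (SE 0.24, limma adjusted p = 0.00191 and 0.000911). Ptpn6, the related SHP-1, was at 0.53 and 0.21 and was not called (limma adjusted p = 0.271 and 0.665; on control arrays 0.000743 with the replicate block). Skap2, an adaptor of SIRPa signalling, was at -0.77 and -0.79 (limma adjusted p = 0.0667 and 0.0552; 1.17e-05 and 8.74e-06 with the replicate block).

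Over the whole partner list, also chosen with earlier results of these data known, 38 of 44 genes were measured. Its shares are likewise a description and not a test of the list. Limma called 7 higher and 8 lower on control arrays (39.5%, against 26.1% of all genes) and 8 higher and 11 lower on Cre arrays (50%, against 28.3%). In the same direction in both labels, 15 were called, 9 of them by a log2 difference of at least 1. The median absolute difference was 0.32 and 0.42, against 0.16 and 0.21 over all genes. With the replicate block the counts were 9 and 11 on control arrays (36% of all genes called) and 9 and 13 on Cre arrays (41%).

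**Figure D3:**
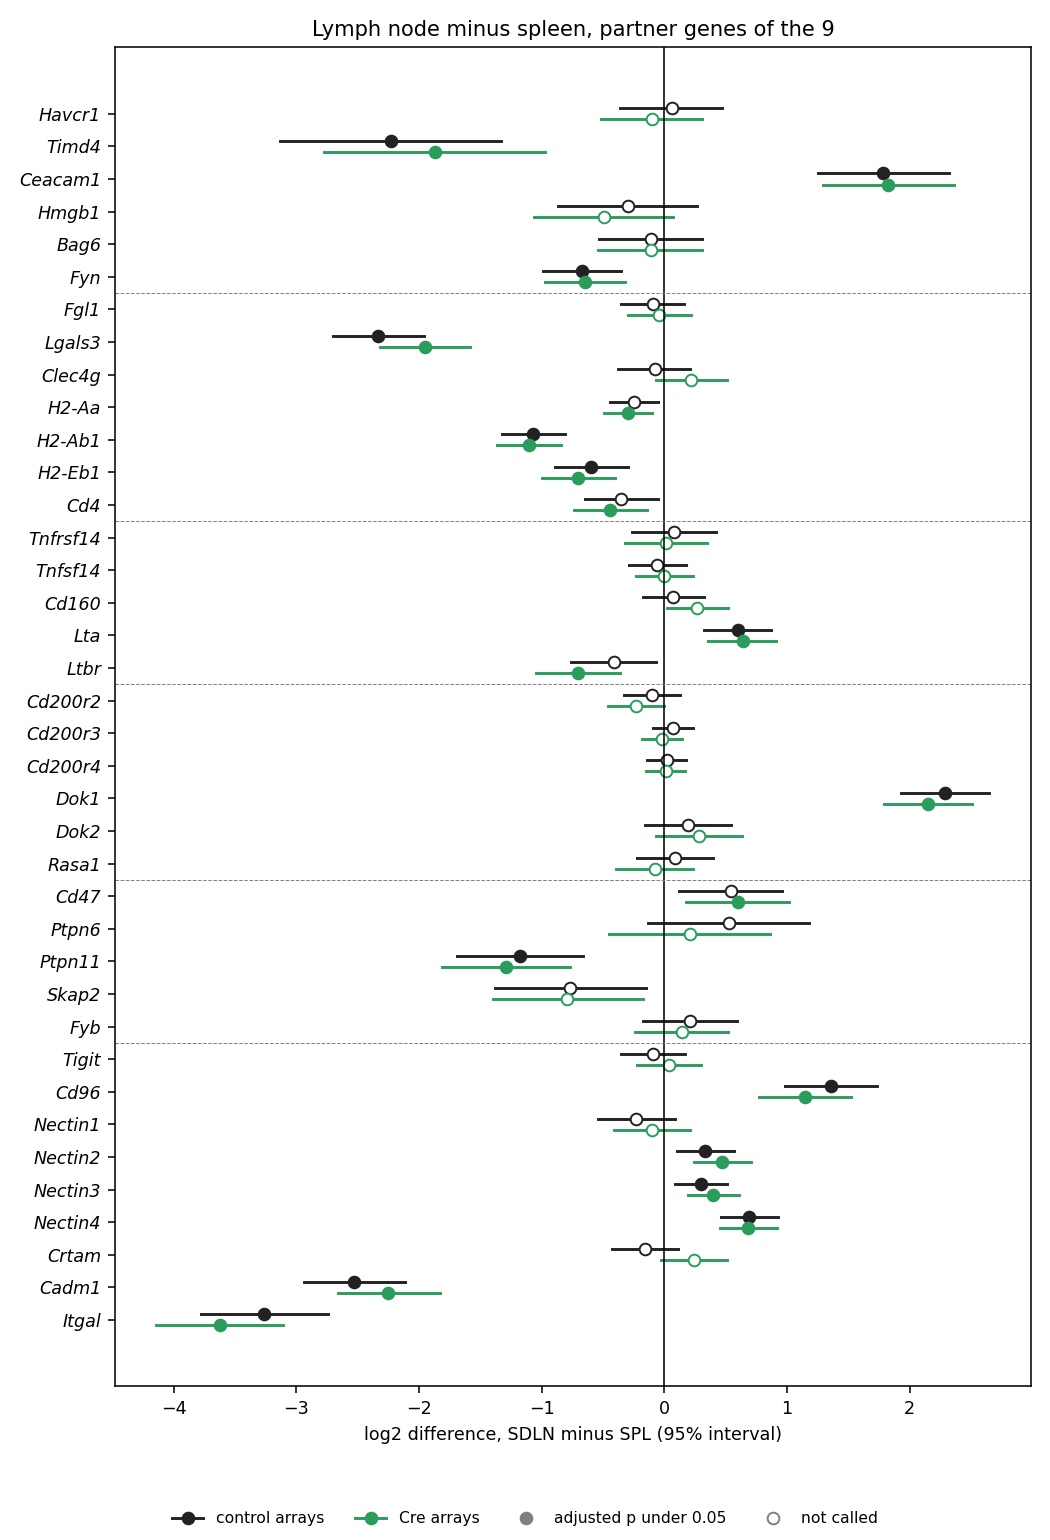
Log2 difference of lymph node minus spleen for the 38 measured partner genes, on control (black) and Cre (green) arrays with 95% intervals; filled points were called, and dashed lines part the partners of TIM-3, LAG-3, BTLA, CD200R, SIRPa and CD226 with PVR, from top to bottom. Itgal, Cadm1, Lgals3 and Timd4 lie lowest, and Dok1 and Ceacam1 highest.

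The study's genotype question was whether loss of CD40 alters steady-state cDC1. None of the 9 genes was called by limma between arrays labelled Cre and control, in spleen or in lymph node. Over all genes it called 0% in either tissue, and blocking on replicate number left this at 0%. Before adjustment, p was under 0.05 for 2 of the 9 in spleen, Lag3 and Cd226 (1.79% of all genes), and for 0 in lymph node (2.02% of all genes). In spleen the other 7 ran from -0.27 to 0.16 in log2 difference, with 95% intervals from -0.65 to 0.65 at the widest. In lymph node all 9 ran from -0.18 to 0.14, with intervals from -0.72 to 0.54. Havcr2, which differed most between tissues, was at 0.00 in spleen (SE 0.24, 95% interval -0.51 to 0.52) and at 0.03 in lymph node (SE 0.24, 95% interval -0.49 to 0.54). Changes within these intervals could not be seen with 3 arrays a group. The intervals also take the labels as right. Since Cd40 ran against the labels in the pairs numbered 3, larger changes are not shown to be absent.

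Lag3 was at a log2 difference of -0.39 (SE 0.11, unadjusted p = 0.00383, limma adjusted p = 1) and lower in all 3 same-numbered pairs, at ratios of 0.742, 0.793 and 0.754. Cd226 was at 0.57 (SE 0.15, unadjusted p = 0.00227, limma adjusted p = 1), with ratios of 1.63, 1.85 and 1.09. In the pair numbered 3 these directions hold only as labelled, since Cd40 ran against the labels there, and with that pair turned neither gene would run 1 way in all 3 pairs. Without all arrays numbered 3, Lag3 was at -0.38 (SE 0.15) and Cd226 at 0.80 (SE 0.18, limma adjusted p = 1 for both). With the replicate block both kept an adjusted p of 0.983. In lymph node Lag3 was at -0.09 (SE 0.11) and Cd226 at 0.11 (SE 0.15). The difference between tissues did not pass for either, as given above, so the spleen values are not shown to be particular to spleen. The NK list (6 measured) summed to 682 to 847 on spleen control and 891 to 942 on spleen Cre arrays, through Klrk1 (NKG2D) alone, at means of 526 and 685 (log2 0.39, SE 0.18, unadjusted p = 0.0524). The other 5 were lower on Cre arrays, among them Ncr1 at 30.7 and 27.2, and 0 of the 6 passed before or after adjustment without the replicate block. With the block, Klrk1 had a limma unadjusted p of 0.0298 (limma adjusted p = 0.983). Cd3e averaged 123 and 106. The part of these cells in the Cd226 value was not tested.

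**Figure D4:**
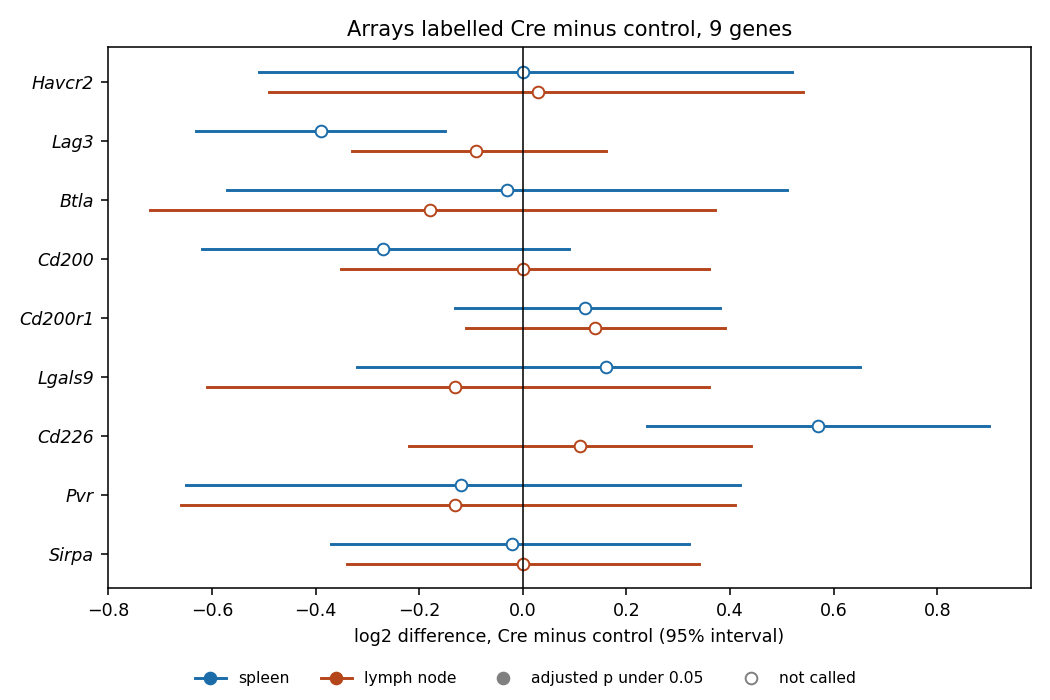
Log2 difference of arrays labelled Cre minus control for the 9 genes in spleen (blue) and lymph node (red), with 95% intervals. No point is filled, since none was called; only the spleen intervals of Lag3 and Cd226 leave out 0.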

How the data were processed

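RNA of sorted mouse cDC1 was hybridised to 12 Affymetrix arrays, 4 groups of 3. The deposited values are linear intensities, made by the authors with RMA; the submitters' processing notes name Affymetrix Expression Console, without a version. Of 28853 probe sets, 21789 carried 1 symbol in the platform annotation, and the brightest per gene left 19938 genes. Log2 intensities were fitted in limma 3.58.1 (R 4.3.3) with 4 group means, eBayes with trend, two-sided tests and Benjamini-Hochberg adjustment over all genes, calling at 0.05. The fit was tried on simulated data with independent noise on each array, which left out the shared deviations of same-numbered arrays. How the fit behaves with such deviations was not tested. Scatter among 3 arrays per group limits the precision.

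Members, partner and marker lists were chosen with earlier results of these data known. Named genes were all 9, partners called alike in both labels by at least 1 log2, 5 set partners (Tnfrsf14, Cd47, Nectin2, Tigit, H2-Ab1), and the 2 nearest patterns per member called alike in both labels. Fyn, Lta, H2-Eb1, Fgl1, Cd4, Hmgb1, Dok2, Ptpn6, Ltbr, Cd160, H2-Aa, Skap2, Nectin3, Nectin4 and marker genes were named after their values were seen. Deviations from group means correlated between same-numbered arrays of different groups at 0.293 to 0.729, every pair over 0.1, so numbers were taken to pair arrays. Differently numbered arrays of different groups ran from -0.633 to 0.557 (median -0.449). The highest of these exceeded every pair numbered 2 or 3 (up to 0.449 and 0.466), so the pairing is not certain. Alternatives were the replicate block, quantile normalization, no trend, an offset of 16, a background filter, probe set means, array weights and leaving out arrays. Sequences are RefSeq's.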

Additional observations from a re-analysis of the deposited data

How the results depend on the processing

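Over 22 alternatives, the tissue differences of the 9 genes in both labels (396 values) kept direction and side of the threshold in 367, and the calls of Havcr2, Btla, Lgals9, Cd200 and Pvr held in all 22. Leaving out each array in turn, lower calls numbered 5 to 5 on control and 4 to 5 on Cre arrays, higher calls 2 to 3 on both, partner calls 13 to 17 and 16 to 20, and genotype calls 0. The replicate block, which pairs same-numbered arrays, raised higher calls from 2 to 3 in both labels (Sirpa) and changed no other call among the 9. With array weights, higher calls on control arrays numbered 4 and partner calls 24, and Lag3 passed on Cre arrays (limma adjusted p = 0.007). Without all arrays numbered 3, lower calls on control arrays fell to 3. Without all arrays numbered 2, lower calls on Cre arrays fell to 3 and partner calls there to 11; both settings test fewer arrays. Signs turned only among values not called with all arrays. With array weights these were Cd226 between tissues on control arrays (0.32), Btla by genotype in spleen (0.05), and Havcr2 (-0.23), Lgals9 (0.01) and Cd226 (-0.19) by genotype in lymph node. Without all arrays numbered 1 they were Cd226 between tissues on control arrays (0.08), Btla in spleen (0.03), and Havcr2 (-0.09), Lag3 (0.02) and Cd226 (-0.04) in lymph node. Without those numbered 2, Cd200r1 (-0.08) and Pvr (0.05) turned in spleen, and without those numbered 3, Sirpa in spleen (0.12) and Cd226 between tissues on control arrays (0.12). Quantile normalization turned Sirpa in spleen (0.02). The cause was not tested. Leaving out single arrays, values that turned sign ran by genotype in spleen from -0.22 to 0.21 (Btla), -0.02 to 0.22 (Cd200r1), -0.05 to 0.38 (Lgals9) and -0.12 to 0.07 (Sirpa). In lymph node they ran from -0.39 to 0.03 (Btla), -0.01 to 0.27 (Cd226), -0.07 to 0.16 (Havcr2), -0.16 to 0.01 (Lag3) and -0.32 to 0.17 (Pvr), and Cd226 between tissues on control arrays from -0.18 to 0.10. Values at 0.00 with all arrays ran from -0.22 to 0.26 (Havcr2, spleen), -0.13 to 0.13 (Cd200, lymph node) and -0.16 to 0.15 (Sirpa, lymph node). Levels near background, as for Cd200r1, limit what can be seen of a change.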
